A study of Homo sapiens with 8 samples.

Results

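The regions described here are 449 stretches of chromatin that carried a peak after forskolin, after an EZH2 inhibitor and after a CBP inhibitor, but no peak in vehicle-treated cells. They were chosen from the peak lists themselves: each is a peak of the forskolin list that shares no base with a vehicle peak and at least 1 bp with a peak of both inhibitor lists. The forskolin list held 51095 peaks, so the 449 are a small subset of it. Windows crowded with such peaks were left out of the choice: chromosome 7 from 40 to 55 Mb, chromosome 4 from 0 to 5 Mb, chromosome 9 from 130 to 140 Mb, chromosome 13 from 110 Mb over the next 5 Mb and chromosome 22 from 20 to 25 Mb (hg38). Within these 5 windows, 340 further peaks met the same rule.

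ATAC-seq was done on the human cell line NCI-H295R, established from an adrenocortical carcinoma. Vehicle cells had DMSO for 96 h; EZH2i cells had EPZ-6438 at 62 µM for 96 h; CBPi cells had PRI-724 at 26 µM for 96 h, both inhibitors at doses labelled IC-50. FSK cells had 48 h of vehicle and then forskolin at 10 µM for 48 h, so the 3 treatments differ in length as well as in agent. Each of the 4 groups had 2 libraries, labelled biological replicates, and 1 peak list. No value below therefore has a replicate error, no test was possible, and the sequencing depth of the libraries is unknown.

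There were 61016 peaks in the vehicle list, 41086 in the EZH2i list and 47161 in the CBPi list. Of 14 adrenocortical marker genes, 10 to 12 had a peak within 1 kb of an annotated end in each list, including NR5A1, STAR and CYP11A1, while HSD3B2 and MRAP had none in any list. Of 7 chromaffin markers, 3 had one in each list, and TH, PNMT and PHOX2A had none. Of 7 fibroblast markers, 2 or 3 had one, of 6 endothelial markers 1, and of 6 immune markers 1 or 2; PTPRC, LYZ and CD14 had none in any list.

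In ATAC-seq the transposase Tn5 inserts adapters where chromatin is open, so that peaks of insertions mark accessible DNA. EZH2 is the enzyme of Polycomb repressive complex 2 that methylates histone H3 at lysine 27, a mark of silenced developmental genes. CBP is a histone acetyltransferase and a partner of β-catenin and of CREB, and PRI-724 is known as a blocker of the contact between CBP and β-catenin. Forskolin activates adenylyl cyclase, so that cAMP rises and protein kinase A phosphorylates CREB; in the adrenal cortex the hormone ACTH uses this route to drive steroid synthesis. A peak present after all 3 treatments is therefore a site that agents with different targets have in common in these lists.

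Some of the regions lie over annotated transcription starts, and the DNA of 4 of them is shown because the text returns to these genes and because each holds a short motif that was searched. The sequences are the 250 bases upstream of the start, from RefSeq on GRCh38.p14 (the coordinates of hg38), plus strand, 5′ to 3′. Capitals mark the motif matches: an SF1 site at GIPR, AP-1 sites at NECTIN4-AS1 and EGFR, and the core of the cAMP response element (CRE) at ZNF331.
GIPR chr19:45667971-45668220: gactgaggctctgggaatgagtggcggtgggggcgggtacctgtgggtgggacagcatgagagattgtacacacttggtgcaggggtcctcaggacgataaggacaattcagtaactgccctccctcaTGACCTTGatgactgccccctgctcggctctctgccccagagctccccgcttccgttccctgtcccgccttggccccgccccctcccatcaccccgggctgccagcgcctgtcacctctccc
NECTIN4-AS1 chr1:161083576-161083825: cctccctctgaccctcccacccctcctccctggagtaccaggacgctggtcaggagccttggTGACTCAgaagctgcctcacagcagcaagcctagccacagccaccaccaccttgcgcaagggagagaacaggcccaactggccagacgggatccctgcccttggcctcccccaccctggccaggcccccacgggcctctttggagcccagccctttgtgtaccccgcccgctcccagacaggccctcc
EGFR chr7:55109589-55109838: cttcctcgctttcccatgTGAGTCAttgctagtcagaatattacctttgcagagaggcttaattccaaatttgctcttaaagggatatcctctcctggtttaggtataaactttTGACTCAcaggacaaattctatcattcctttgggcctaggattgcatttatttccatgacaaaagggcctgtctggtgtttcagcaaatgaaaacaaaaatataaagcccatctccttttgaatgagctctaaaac
ZNF331 chr19:53554363-53554612: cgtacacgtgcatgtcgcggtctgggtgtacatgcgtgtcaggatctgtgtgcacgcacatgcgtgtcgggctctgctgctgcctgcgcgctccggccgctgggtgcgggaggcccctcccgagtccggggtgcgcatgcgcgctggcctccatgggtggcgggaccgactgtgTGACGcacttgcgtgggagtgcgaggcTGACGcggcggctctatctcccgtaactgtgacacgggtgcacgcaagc

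GIPR encodes the receptor of the gut hormone GIP, which signals through cAMP; its upstream bases lay wholly inside the gained peak. NECTIN4-AS1 is an RNA transcribed opposite to NECTIN4, the gene of a cell adhesion protein, and its 250 bases also lay wholly inside. EGFR encodes the epidermal growth factor receptor; the start shown is an alternative one inside the gene, and 97 of its 250 bases lay in the peak. ZNF331 encodes a zinc finger protein, and the window shown belongs to 1 of several annotated starts.

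Motifs were searched on both strands in the 300-base windows that RefSeq gives for annotated starts, 250 bases before to 50 after; windows of chromosome 8 were not used. Of 34789 windows, 30 were touched by 24 of the gained peaks, 19 of them at coding genes, and 8 lay wholly inside a peak. The AP-1 motif TGANTCA, bound by FOS and JUN proteins, was in 6 of the 30 windows, or 20% (95% Wilson interval 9.51 to 37.3), against 7.69% of all windows and 4.47% of windows under FSK peaks that vehicle also had. Its 6 windows belong to NECTIN4-AS1, LINC01682, LOC91450, LOC124904075, EGFR and MUC12-AS1, of which only LOC124904075 and EGFR are coding genes. At NECTIN4-AS1 the first base of the match was 188 bp upstream of the start. At EGFR there were 2 matches, at 232 and 136 bp, of which the farther one lay inside the peak.

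The SF1 motif CAAGGTCA, read by the adrenal nuclear receptor SF1 (gene NR5A1), was in 2 of 30 windows, GIPR and KLK13, or 6.67% (1.85 to 21.3), against 1.29% of all windows and 0.807% of those under shared FSK peaks. In GIPR it stands on the minus strand, with its first plus-strand base 122 bp upstream of the start. The KLK13 match, upstream of the start at 51064919, lies downstream of another annotated KLK13 start at 51065092, so it may lie within a transcript. The full CRE TGACGTCA was in 0 of 30, which allows a share of up to 10%, against 1.84% of all windows and 3.10% of those under shared FSK peaks; its core TGACG, which every full CRE contains, was in 9 of 30 (30.0%; 16.7 to 47.9) against 24.5% and 33.9%. The TCF/LEF motif ATCAAAG was in 0 of 30 against 2.64% and 1.36%. The AP-1 and SF1 intervals lay above the share of all windows, the latter on 2 windows, and the other intervals held it. Windows under the other gained peaks were not measured and base composition was not checked. The AP-1 and SF1 shares therefore cannot be called particular to these regions. Some of the 30 windows overlap one another, so the intervals are too narrow. Several of the 9 core windows belong to ZNF331, and the matches of ALOX12-AS1 and RNASEK-C17orf49 are the same bases. A match can also lie outside the peak, as the core did at CHST15, SEMA3B and the ZNF331 start at 53555240. A match is a run of letters and was not checked for binding.

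Outside the 5 windows, 7096 of 48384 FSK peaks shared no base with a vehicle peak, the background share of 14.7%. The same share was 4.94% for the EZH2i list (1903 of 38519 peaks) and 9.87% for the CBPi list (4443 of 45022). All 3 comparisons use the one vehicle list, so they are not independent. The 449 regions were 6.33% of the 7096 gained FSK peaks; of the rest, 1176 touched only a CBPi peak, 262 only an EZH2i peak and 5209 neither. These counts are what the rule itself gives and carry no test.

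At the edge of the rule, the gained peaks closest to a vehicle peak had gaps of 38, 43 and 46 bp. Their nearest gene ends were those of UACA, PTGES3L and MCTP2, with UACA and MCTP2 149450 and 166820 bp away. In this paragraph a peak is named only by its nearest gene end. Just outside stood peaks at CELSR3, JUND and FAT1, which shared 5, 11 and 16 bp with a vehicle peak. The smallest areas inside were 200.4 near ZDHHC11B, 200.4 for a peak 207567 bp from DPH6 and 201.0 near SEMA6B, next to the list minimum of 200. Small overlaps with an inhibitor peak were 5 bp at ZNF395 and 53 bp at SLC6A18.

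The peaks were mostly of low to middling size. Size is the authors' area of significance, a signal summed over the peak, and is given as a percentile within the peak's own list because areas of different lists cannot be compared. The median percentile was 33.1 in the FSK list (quartiles 17.6 and 49.9), 19.1 in the EZH2i list (9.19 and 32.9) and 36.3 in the CBPi list (23.1 and 50.0). All peaks gained in a list had medians of 20.9, 13.9 and 16.5 in the same order. Of the 449, 112 were in the larger 50% of the FSK list, 33 of the EZH2i list and 112 of the CBPi list, while 251 (55.9%) were in the smaller 50% of all 3. These ranks describe the set: the lists differ in length, so a higher rank in one than in another shows no change in size.

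**Figure D1:**
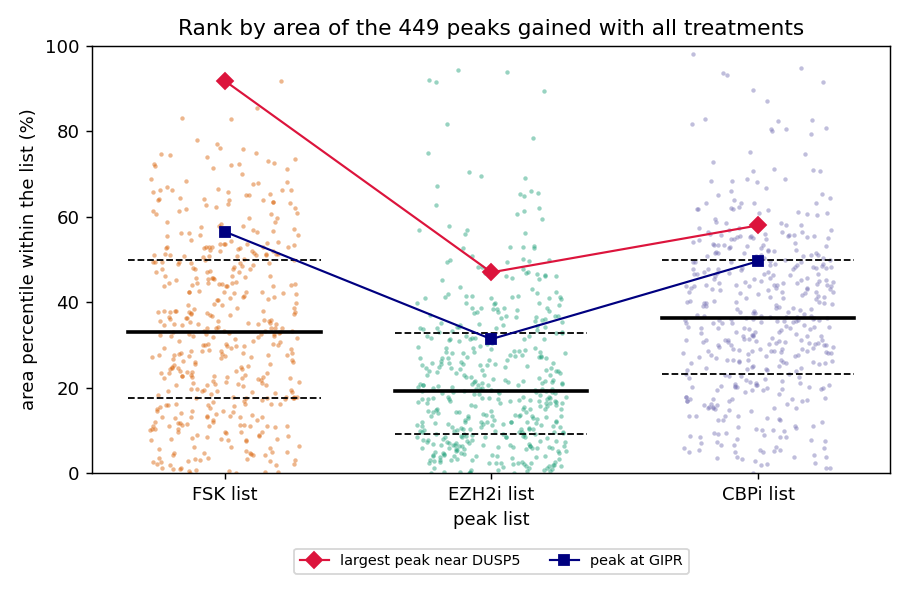
Area percentile of the 449 gained peaks within each of the 3 treated lists (y axis, percent; each point is 1 peak, thick lines are medians, dashed lines quartiles). The medians are 33.1, 19.1 and 36.3; lines join the peak near DUSP5 (91.9, 47.0 and 58.0) and the peak at GIPR (56.5, 31.4 and 49.6).

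In this plot of ranks the DUSP5 peak stands at the top of the FSK points and near the middle of the EZH2i list. The EZH2i points crowd towards the bottom of their list, and a few lie above 90. Those few all belong to regions where an inhibitor peak also reached into a vehicle peak. In the other regions the highest EZH2i percentile was 70.5.

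The summits of a region often lay close together in the 3 lists. The rule requires the peaks to overlap, so close summits and high cover follow in part from it. No comparison set was measured for them. The EZH2i summit was within 50 bp of the FSK summit in 281 of 449 (62.6%), the CBPi summit in 292 (65.0%), and both in 233 (51.9%; 47.3 to 56.5). Median distances were 29 and 33 bp. Both inhibitor peaks covered at least 50% of the FSK peak in 399 (88.9%), and in 39 at least 1 summit was over 500 bp away.

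In 35 of the 449, an inhibitor peak that met the FSK peak also reached into a vehicle peak next to it. These 35 had a median gap of 147 bp to vehicle and median percentiles of 13.2 (FSK), 50.8 (EZH2i) and 66.9 (CBPi). Both summits coincided with the FSK summit in 1 of them, and 15 (42.9%; 27.98 to 59.1) were at a gene end. In the other 414, both inhibitor peaks were free of vehicle, 232 (56.0%) had both summits within 50 bp, and 27 (6.52%; 4.52 to 9.32) were at a gene end. The group of 35 was set apart after the data were seen.

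The regions lay less often at gene ends than peaks that vehicle shared, and more often than peaks found in the FSK list but in neither inhibitor list. A peak was counted at a gene end when it lay within 1 kb of the first or last annotated base of a coding gene. The share was 42 of 449 (9.35%; 6.995 to 12.4), against 2.98% (2.55 to 3.47) of the 5209 peaks gained with forskolin alone and 29.5% (29.0 to 29.9) of the 41288 shared with vehicle. It was 7.23% (5.88 to 8.85) in peaks gained also with CBPi and 9.54% (6.55 to 13.7) in peaks gained also with EZH2i, whose intervals overlap that of the 449. Peaks gained with forskolin alone were smaller, with a median percentile of 19.1; weighted to the sizes of the 449 their share was 2.91%, and that of the shared peaks was 14.4%. The 42 included 22 at a 5′ end, 8 at a 3′ end and 12 where the gene table gave no strand. A coding transcription start lay within 1 kb for 34 of 430 regions (7.91%), chromosome 8 left out, against 1.67% of peaks gained with forskolin alone.

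Most of the remaining regions were spread between gene bodies and the space between genes. The summit was inside a protein-coding gene in 240 (53.5%; 48.8 to 58.0), against 43.4% (42.0 to 44.7) with forskolin alone. The share was 50.7% (47.8 to 53.5) in peaks gained also with CBPi, an interval that overlaps that of the 449. It was 40.5% (34.7 to 46.5) in peaks gained also with EZH2i and 48.1% in peaks shared with vehicle. Of the 449, 213 were inside a gene but away from its ends. Of the 449, 194 (43.2%) lay between genes and away from gene ends. No gene end lay within 100 kb of the summit in 96 (21.4%; 17.8 to 25.4), against 39.5% with forskolin alone. The share was 41.6% (35.8 to 47.65) of peaks gained also with EZH2i and 19.1% (16.9 to 21.4) of those gained also with CBPi. It was 20.8% of peaks shared with vehicle.

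The regions also lay nearer to vehicle peaks than those gained with forskolin alone. The median distance to the nearest vehicle peak was 7343 bp, against 13970 bp for peaks gained with forskolin alone. It was 13432 bp for those gained also with EZH2i and 8823 bp for those gained also with CBPi. It was 8570 bp for the 414 regions whose inhibitor peaks were free of vehicle, close to the latter. A vehicle peak was within 5 kb in 194 (43.2%; 38.7 to 47.8), against 34.1% (31.5 to 36.9) of peaks gained also with CBPi. The share was 29.8% (24.6 to 35.6) in peaks gained also with EZH2i. With forskolin alone it was 26.4% (25.2 to 27.6), and 26.0% after weighting to the same sizes. There were 80 regions within 1 kb of a vehicle peak and 37 with none within 50 kb. Both summits coincided in 33.8% of the former and 67.6% of the latter. The density of genes also differed between the sets. The median number of coding genes within 500 kb was 8 for the 449 and 4 for peaks gained with forskolin alone. It was 7 for peaks gained also with CBPi and for peaks shared with vehicle, and 4 for those gained also with EZH2i. The part of gene density in these shares was not tested.

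**Figure D2:**
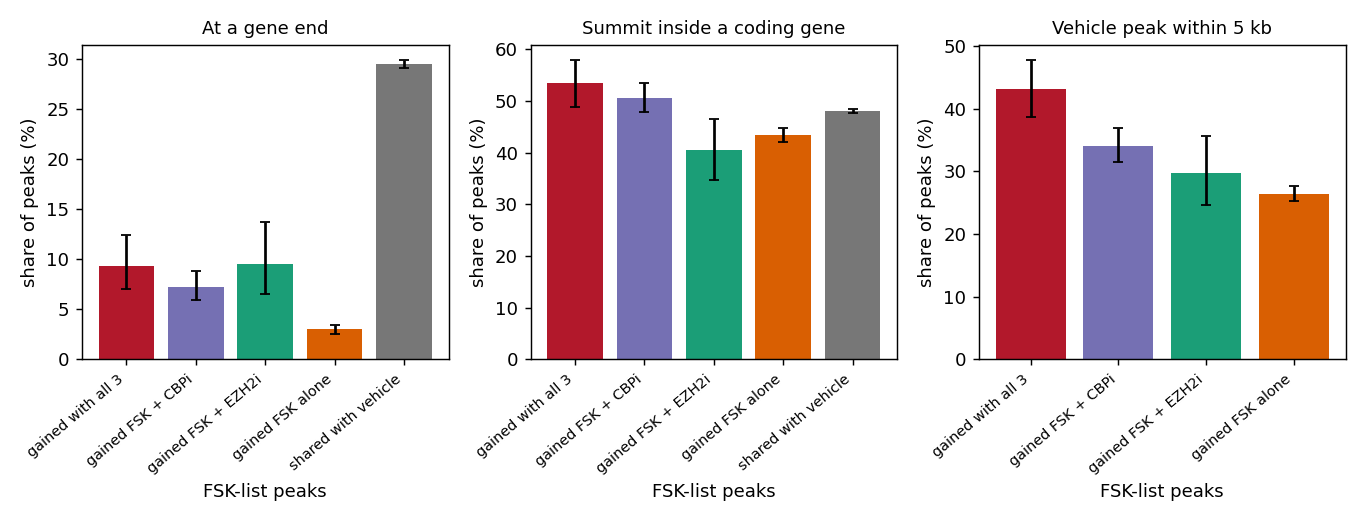
Share of FSK-list peaks (y axis, percent) at a gene end, with the summit inside a coding gene, and with a vehicle peak within 5 kb, for the 449 regions and the comparison sets; bars show the share and whiskers the 95% Wilson interval, which covers counting error only. The 449 stand at 9.35%, 53.5% and 43.2%, and peaks gained with FSK alone at 2.98%, 43.4% and 26.4%.

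In the plot of shares the interval of the 449 lies above that of forskolin alone in each panel and overlaps at least 1 of the sets with a single inhibitor in the first 2.

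**Figure D3:**
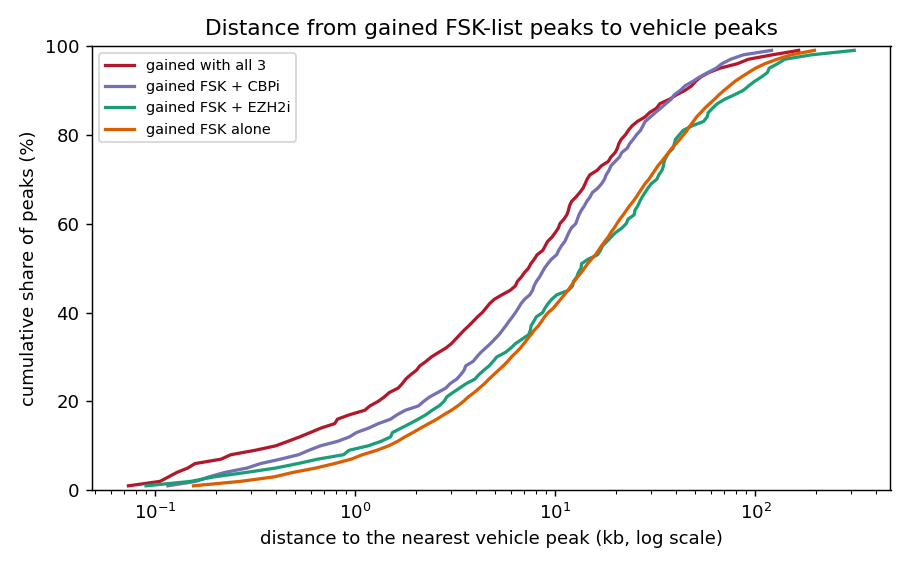
Cumulative share of gained FSK-list peaks (y axis, percent) by distance to the nearest vehicle peak (x axis, kb, log scale), 1 line for each of 4 sets outside the left-out windows. Of these 4 lines, that of the 449 lies to the left for most of its length, with a median of 7343 bp against 13970 bp for FSK alone.

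The distance plot shows that the line of the 449 runs close to that of peaks gained also with CBPi at long distances.

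By chromosome, the regions made up 1.84% of FSK peaks on chromosome 19 (29 of 1574; 1.29 to 2.63) and 1.66% on chromosome 15 (35 of 2110; 1.195 to 2.30). On chromosome 6 the share was 0.409% (11 of 2687; 0.229 to 0.732) and on chromosome X 0.279% (3 of 1077). On chromosome 19, 19.2% of the gained FSK peaks were among the 449. Most regions stood alone: with a distance of 50 kb, 419 were single, 12 pairs formed and 2 groups of 3.

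**Figure D4:**
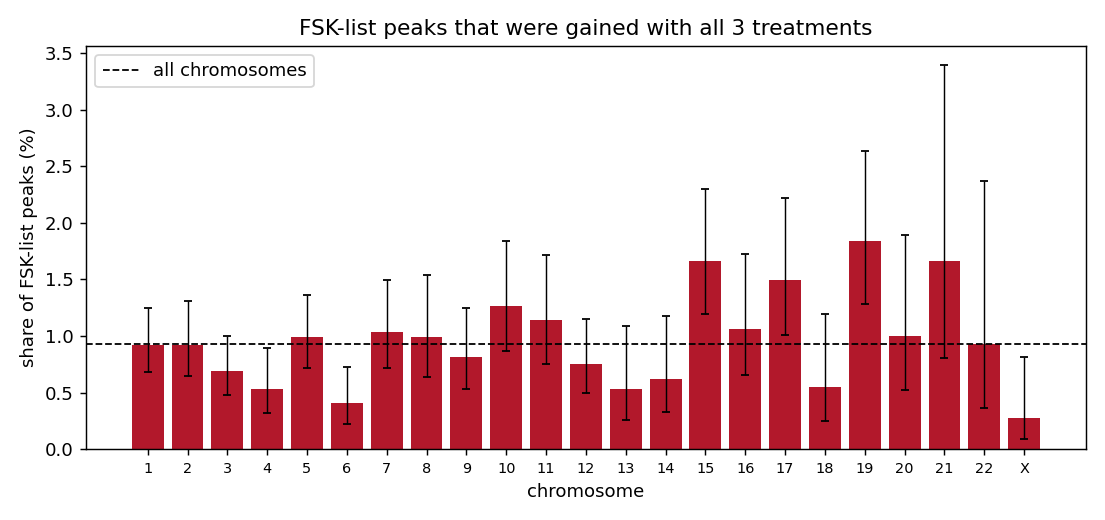
Share of each chromosome's FSK-list peaks that were gained with all 3 treatments (y axis, percent; bars, with 95% Wilson intervals for counting error). Chromosomes 19 (1.84%) and 15 (1.66%) are high and chromosomes 6 (0.409%) and X (0.279%) low; the dashed line is the share over all chromosomes.

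In the chromosome plot the intervals of 15, 17 and 19 lie wholly above the dashed line, and those of 4, 6 and X wholly below it.

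The 2 groups of 3 were at ZDHHC11B, where 3 peaks lay on chromosome 5 between 757245 and 761636, and near HM13 and ID1 on chromosome 20 between 31560743 and 31611030. ZDHHC11B has a near copy, ZDHHC11, so reads there may be split between copies. ID1 encodes an inhibitor of helix-loop-helix factors, and its peak was at percentiles 33.1 (FSK), 13.2 (EZH2i) and 40.1 (CBPi). The largest pairs were nearest to DUSP5, SYCE1L and DPH6. The DPH6 peaks lay 159862 and 207567 bp from the gene end, past the 100 kb within which peaks were assigned. Besides ZDHHC11B, DUSP5 and SYCE1L, the genes GLIPR2, MTX1, PALD1, SHC4, HM13 and TEX48 each had 2 assigned peaks, and 334 genes had 1.

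The largest of the 449 lay beside DUSP5, which encodes a nuclear phosphatase that switches off ERK. It spanned chromosome 10 from 110511903 to 110513206, its summit 1328 bp from an end of the gene, whose strand was not given. Its area was 2701 in the FSK list, percentile 91.9, and its percentiles were 47.0 with EZH2i and 58.0 with CBPi. The nearest vehicle peak was 7618 bp away. Vehicle and each treated list had a peak over the other end of DUSP5, at percentile 98.3 in the vehicle list. A smaller region near the same gene, at 110535982 to 110536400, stood at percentiles 51.9, 0.0292 and 42.8. Within 25 kb of the first summit there were 4 vehicle, 5 EZH2i, 7 CBPi and 8 FSK peaks, the treated counts including both gained regions, which vehicle lacks by the rule.

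Other large peaks were far from genes or deep inside them. On chromosome 10 (128629252 to 128630027) a peak of area 1838 lay 503175 bp from MKI67, the gene of the proliferation antigen Ki-67, and 110022 bp from any vehicle peak. A peak of area 1645 lay inside PTPRN2, a gene of a secretory granule protein (chromosome 7, 157932293 to 157933173); its percentiles were 83.2 with FSK, 23.5 with EZH2i and 89.6 with CBPi. Near LMX1A, which encodes a homeodomain factor (chromosome 1, 165116683 to 165117917), the percentiles were 82.9, 5.88 and 26.1. The next were nearest to GOLGA8G, GALC, SND1, BRINP3, CUL1 and TNFRSF19, with FSK percentiles from 77.9 down to 74.8. GOLGA8G belongs to a family of near-identical copies, so its value is uncertain, and its inhibitor summits were 929 and 894 bp from the FSK summit. Among these 10, the EZH2i percentile was the lowest of the 3 in all but GOLGA8G, SND1 and BRINP3.

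Of peaks at gene ends, DUSP5 was followed by ALDH3B1, an aldehyde dehydrogenase gene, with area 897 and percentiles 68.2 (FSK), 36.8 (EZH2i) and 55.8 (CBPi). CDC42BPG followed with area 726.2 and percentiles 61.4, 4.03 and 47.8. At GIPR the peak spanned the 5′ end (chromosome 19, 45667730 to 45668430), with area 633.3 and its summit 358 bp from that end. The nearest vehicle peak was 2177 bp away, and the percentiles of the GIPR peak were 56.5, 31.4 and 49.6. Around it the 4 lists held 6, 6, 7 and 7 peaks within 25 kb (vehicle, EZH2i, CBPi, FSK), the gained peak counted among them in the treated lists. At MYC, the gene of a growth-promoting transcription factor, a peak of area 561 had its summit 225 bp from an end of the gene. Its percentiles were 51.9, 6.28 and 12.4. Vehicle and each treated list had a peak over the other end of MYC, at percentile 99.98 in the vehicle list. The rest of the first 10 were ASPG, NR2E3, TBC1D2B, SYCE1L and SLC6A18, with areas from 573 down to 488.

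**Figure D5:**
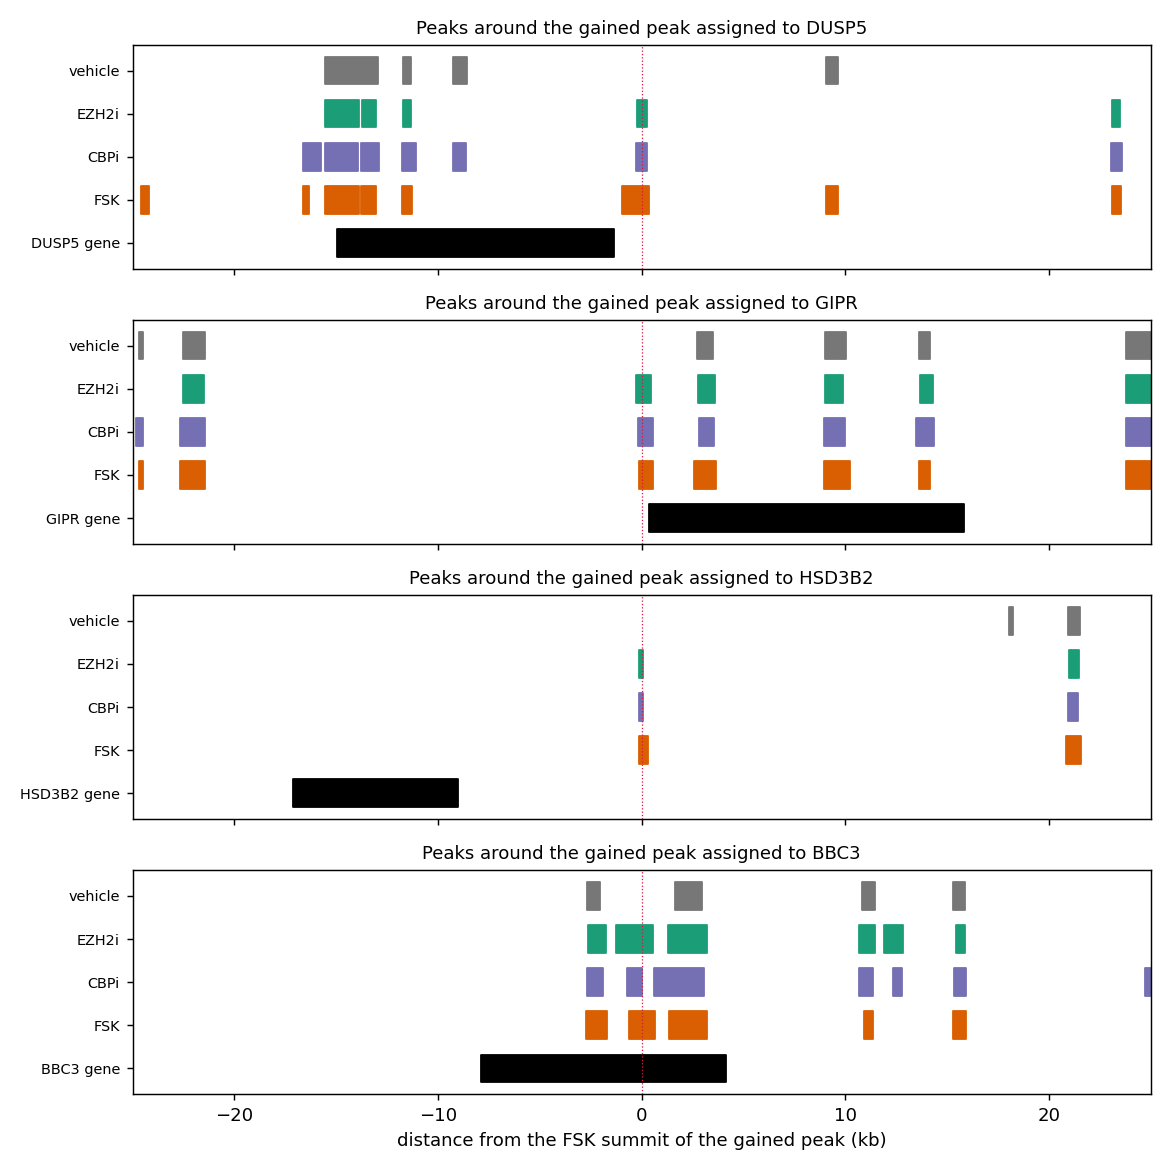
Peaks of the 4 lists within 25 kb of the FSK summit of a gained peak near DUSP5, GIPR, HSD3B2 and BBC3 (x axis, distance in kb; boxes are peaks, black bars the gene). At the dotted line each treated list has a peak and vehicle has none.

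Fixed gene lists were used to read the regions by function; each region was assigned to the coding gene whose end was closest, up to 100 kb away. Of 14687 genes with an FSK peak, 343 had a region, a background of 2.34%. In the 17 lists together, 19 of 305 genes with an FSK peak had one (6.23%), holding 20 regions, or 1.95% of the 1025 FSK peaks of these genes against 0.946% for all genes. The gene lists were chosen with earlier results of these data known, so these shares are a description and show no enrichment. No set test was run.

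Among cAMP target genes, 3 of 28 had a region: DUSP5, NFIL3 and NR4A3. NR4A3 encodes an orphan nuclear receptor; its region (chromosome 9, 99778376 to 99778615) was 43417 bp from the gene end, at percentiles 45.7 (FSK), 11.5 (EZH2i) and 28.1 (CBPi), with no vehicle peak within 25 kb. NFIL3, a repressor of the bZIP family, had one within its body at 33.1, 6.51 and 55.8. In the cAMP machinery list 3 of 23 genes had one: ADCY2 (an adenylyl cyclase), GNAS (the stimulatory G protein) and PRKACB (a catalytic subunit of protein kinase A). Their FSK percentiles were 57.9, 8.68 and 42.7.

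Steroidogenic genes with a region were HSD3B2, GATA6 and PDE8A, 3 of 23. HSD3B2 encodes the 3β-hydroxysteroid dehydrogenase of the adrenal cortex and has a near copy, HSD3B1; its region (chromosome 1, 119431916 to 119432352) lay 9008 bp beyond the 3′ end, at percentiles 35.6, 5.70 and 2.36. GATA6 encodes a transcription factor of the cortex; its region (chromosome 18, 22223703 to 22223989) was 21340 bp from the gene end and 51584 bp from the nearest vehicle peak, at 49.2, 9.95 and 29.6. PDE8A degrades cAMP, and its region inside the gene stood at 50.8, 2.42 and 35.4. In all 3 genes the region ranked among the lowest 10% of the EZH2i list, as did 123 of the 449 regions.

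Feedback genes of the MAPK route had 3 of 18: DUSP5, DUSP4 and DUSP16. Coactivator and Polycomb genes had 3 of 29, namely CREBBP (which encodes CBP itself), NCOA1 and BCL9, the last a β-catenin cofactor; their FSK percentiles were 20.3, 43.8 and 51.1. Stress genes had 2 of 25: BBC3, which encodes the p53 target PUMA, with a region (chromosome 19, 47228099 to 47229380) at 36.2, 49.4 and 12.4, and HSPA1B, a heat shock gene that has a near-identical copy, HSPA1A. CDK6 and CYP1A1 were the only genes with a region in the cell cycle and xenobiotic lists.

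No region was assigned to the listed Wnt target genes (20 genes, 88 FSK peaks, which allows up to 3.41% of them), developmental transcription factors (41 genes, 130 peaks, up to 2.31%) or housekeeping genes (19 genes, 50 peaks, up to 6.00%). The marker lists for chromaffin, fibroblast, endothelial and immune cells also had 0, from 3, 9, 20 and 9 FSK peaks. Against 0.946% over all genes, a count of 0 in lists of this size does not set them apart. The Wnt list does not hold MYC or NKD2, a Wnt feedback gene, and each of these had 1 assigned region.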

How the data were processed

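ATAC-seq of NCI-H295R cells was deposited as 4 peak lists, 1 for each group of 2 libraries. Per the submitters' processing notes, Bowtie2, Genrich and deepTools 2.0 were used on build hg38. Not given in the sources used here are the way 2 libraries became 1 list, read filters, any shift for Tn5 and the threshold for peaks. The authors deposited for each peak a signal (area of significance, at least 200 in every list), a score (area per width), the −log10 of the summit p and another value, the summit's offset. No file gives reads, so depth is unknown and no replicate spread exists.

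Lists were compared by overlap of at least 1 bp, with the rule tested on simulated intervals. The members and gene lists were chosen with earlier results of these data known. For shares, 95% Wilson intervals were computed; they take peaks to be independent and hold counting error alone. Comparison sets were also weighted to the FSK area deciles of the members, a step added after seeing the data. Gene ends and starts came from RefSeq GRCh38.p14. A distance in bp from a region to a gene end was taken from its FSK summit. All 338 genes of 17 lists matched, and 15812 of 19974 coding genes had a promoter window. The planned motif search at summits was not run, for want of a genome; promoter windows were searched instead. Named regions were the 10 of largest FSK area overall and at gene ends, up to 4 per gene list, the genes with most members, the largest clusters and those at the rule's edge; some of these are not reported here. The remaining names, including the promoter genes, were chosen after seeing values. Python 3.11.15, pandas 2.3.3, numpy 2.4.6 and matplotlib 3.10.9 were used. Alternatives changed the overlap rule, the windows, the anchor list, the list lengths, the area minimum and the distances.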

Additional observations from a re-analysis of the deposited data

How the results depend on the processing

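The number of regions stayed within 1.5 times of 449 (369 to 437) when at least 50% of the peak had to be covered, when the summit had to lie in both inhibitor peaks, when vehicle peaks within 1 kb were excluded, when the anchor was the EZH2i or CBPi list, and when both inhibitor peaks had to be free of vehicle. It was 789 with the 5 windows kept, 1221 with lists of equal length, which also shortens the vehicle list (288 of the 449 remained), and 3 with treated peaks above the median area. The gene-end share was 6.78% without vehicle peaks within 1 kb, 6.52% with both inhibitor peaks free of vehicle (chosen after seeing the data), 17.4% with gene ends extended to 2.5 kb and 0% of the 3 peaks above the median area. The share inside a gene was 62.9% with the windows kept and 33.3% above the median area. The median distance to vehicle was 10323 bp without vehicle peaks within 1 kb, 3491 bp with the windows kept, 11616 bp with equal lengths and 633 bp above the median area. Assigning regions only to the gene that holds the summit left 9 in the gene lists, against 20, and moved 7 of the 17 list counts by over 1.5 times; a limit of 50 kb moved 1 that far. Beyond such construction, the cause of these shifts was not tested. No paired analysis was possible because the labels give no replicate numbers and each group has 1 list, and no replicate could be left out. Unknown depth limits every count: a peak missing from a list may lie just under its threshold.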

Other observations

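The following regions were chosen after their values were seen. Those in the larger 50% of all 3 lists numbered 3: near DNAJB12, a gene of a heat shock cochaperone, at percentiles 66.3 (FSK), 67.2 (EZH2i) and 80.9 (CBPi); near STK38L, a kinase gene, at 50.0, 53.1 and 61.6; and in C1QTNF3 at 58.3, 60.6 and 51.0. The highest inhibitor ranks belonged to regions beside a vehicle peak. At UBE2S, a gene of a ubiquitin-conjugating enzyme, the percentiles were 4.77, 94.3 and 94.8, with vehicle 91 bp from the FSK peak. For a region 23323 bp from WNT11, a Wnt ligand gene, the percentiles were 33.2, 94.0 and 98.1, with vehicle 109 bp from the FSK peak. Both inhibitor peaks shared 1440 bp with vehicle at UBE2S and 2271 bp near WNT11. These inhibitor ranks are therefore ranks of peaks that vehicle also had.

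By count, regions were most crowded at 0 to 5 Mb of chromosome 5, with 11 of 60 gained FSK peaks (18.3%). Next came 70 to 75 Mb of chromosome 15, with 10 of 38 (26.3%). The share over all gained FSK peaks was 6.33%. Other stretches had higher shares on fewer regions, such as 7 of 16 (43.8%) at 0 to 5 Mb of chromosome 19. The 11 include the group of 3 at ZDHHC11B. The chromosome 15 stretch included 2 in THSD4 and 2 nearest to UACA, 149450 and 161608 bp from its end. It also held 1 each nearest to TLE3 (98072 bp), NR2E3, PKM, INSYN1 (56926 bp), CLK3-AS1 and CYP1A1. There were 3 regions within 2 Mb of a left-out window, all on chromosome 7, and the EGFR region is one of them.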
